A study of Mus musculus with 56 samples.

Results

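This report covers 8 genes that PPAR alpha, a nuclear receptor for fatty acids, is known to switch on: Cpt1a, Pdk4, Angptl4, Acot1, Ehhadh, Plin2, Vnn1 and Fgf21. They were found by name among the 20018 gene names on the arrays, and all 8 had a probe. Each gene was read from 1 probe per tissue, the one with the highest mean sample signal. The animals were males of MutaMouse, a transgenic line made for mutation assays, aged about 14 weeks. They were gavaged daily for 28 days. Group D0 received olive oil, and groups D1, D2 and D3 received chrysene, a polycyclic aromatic hydrocarbon, in that oil at daily doses of 17.5, 50 and 150 mg for each kg of body weight. Every group, D0 included, thus received olive oil daily and carried the MutaMouse transgene. The tissues were taken 72 hours after the final dose. Each group had 5 mice, except for D2 with 4 mice for liver and forestomach and 3 for lung, which makes 56 arrays. RNA came from random sections of each organ, and every value is a log2 ratio of that RNA over a reference RNA pooled from mouse cell lines. A ratio of 0 therefore means as much signal as in the reference. No gene's level can be set against another gene's on this scale.

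PPAR alpha pairs with an RXR receptor and binds DNA when fatty acids reach the nucleus, as they do in fasting. In liver it is the main driver of the genes that burn fat. CPT1A carries long-chain fatty acids into mitochondria, EHHADH is an enzyme of peroxisomal beta-oxidation, and ACOT1 frees fatty acids from coenzyme A in the cytosol. PDK4 shuts off the pyruvate dehydrogenase complex and so spares glucose. ANGPTL4 is secreted and inhibits lipoprotein lipase, and FGF21 is a hormone that the fasted liver releases. PLIN2 coats lipid droplets, and VNN1 is a membrane-bound pantetheinase. Several of these genes have other regulators too, among them PPAR delta, PPAR gamma, glucocorticoids and, for Pdk4, skeletal muscle fuel switching.

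Promoters of 6 of the 8 genes were matched by symbol to RefSeq sequences on GRCm38.p6. The 250 bases before the start of transcription were searched on both strands for the core motif that PPAR and RXR recognise, AGGTCA, and for CACGTG, the E-box that clock proteins bind. Of 32851 promoters of this length, 14% held the core motif and 6.02% the E-box. A pair of core motifs in the same direction with 1 base between them, the form that PPAR with RXR binds, was in 0.0335% of all promoters and in none of the 6. The D-box TTATGTAA, which the clock output proteins DBP, TEF and HLF bind, was in 0.819% of all promoters and in none of the 6. The stretches of 4 genes are shown, because Acot1, Plin2 and Cpt1a varied with or against each other between mice in forestomach and Fgf21 was measured above background in liver only. They run 5' to 3' on the gene's strand, with the core motif or E-box in capitals.
Acot1, chr12:84009252-84009501, plus strand: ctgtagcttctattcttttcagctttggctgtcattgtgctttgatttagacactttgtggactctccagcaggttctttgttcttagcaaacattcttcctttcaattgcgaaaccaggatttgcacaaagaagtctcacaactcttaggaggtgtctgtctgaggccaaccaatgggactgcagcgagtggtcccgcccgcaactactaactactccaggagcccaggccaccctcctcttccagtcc
Plin2, chr4:86670060-86670309, minus strand: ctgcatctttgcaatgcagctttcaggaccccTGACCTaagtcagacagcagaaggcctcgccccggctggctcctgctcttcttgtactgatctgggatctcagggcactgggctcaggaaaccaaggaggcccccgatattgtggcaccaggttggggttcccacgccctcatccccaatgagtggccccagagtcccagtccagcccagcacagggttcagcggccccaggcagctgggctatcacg
Cpt1a, chr19:3323051-3323300, plus strand: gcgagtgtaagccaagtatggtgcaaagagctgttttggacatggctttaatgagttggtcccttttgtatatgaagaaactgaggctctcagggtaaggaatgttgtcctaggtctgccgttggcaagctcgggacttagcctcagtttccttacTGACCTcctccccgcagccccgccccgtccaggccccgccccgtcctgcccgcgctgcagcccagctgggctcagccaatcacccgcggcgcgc
Fgf21, chr7:45615491-45615740, minus strand: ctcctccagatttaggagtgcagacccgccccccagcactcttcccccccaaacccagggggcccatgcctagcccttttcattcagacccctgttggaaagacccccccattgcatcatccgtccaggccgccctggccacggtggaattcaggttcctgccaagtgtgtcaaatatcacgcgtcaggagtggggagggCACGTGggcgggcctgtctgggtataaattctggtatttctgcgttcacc
Cpt1a and Plin2 each held 1 core motif, read as TGACCT on the strand shown, starting 94 and 218 bases before the start. Fgf21 held 1 E-box, 50 bases before the start. No motif was found in the stretches of Acot1, Pdk4 and Ehhadh. A match is a description of letters and not evidence of binding.

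The sample signal was well above background at a median of 38.7% of probes in liver, 52.2% in lung and 32.1% in forestomach. In forestomach this share had medians of 48.8%, 32.1% and 24.7% on slides 1, 2 and 3. The tissue labels were checked in vehicle mice against markers that were well above background on at least 3 arrays of both tissues compared, the filter used for all such comparisons. Comparisons between tissues read each gene from 1 probe, the one with the highest mean sample signal over all arrays. All 4 such hepatocyte markers were higher in liver than in lung and all 6 higher than in forestomach, both such alveolar type 2 markers were higher in lung than in liver, and all 3 such keratinocyte markers were higher in forestomach than in lung. Another 3 alveolar type 2 markers passed in lung and not in liver, and all 7 keratinocyte markers in forestomach and not in liver. With the probe chosen for liver alone, 1 keratinocyte marker passed in liver. Glandular stomach markers, whose mean ranged from 0.31 to 6.80 between mice, were also present in forestomach samples. Skeletal muscle markers had means of 5.70 and 5.40 in lungs 17 and 19, both D3, and at most 0.31 in the other lungs. Each slide held 1 tissue, so that slide and tissue cannot be told apart. On 50 of 56 arrays the position across the slide, counted in columns, was the dose step plus 1, so that position and dose are largely confounded.

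**Figure D1:**
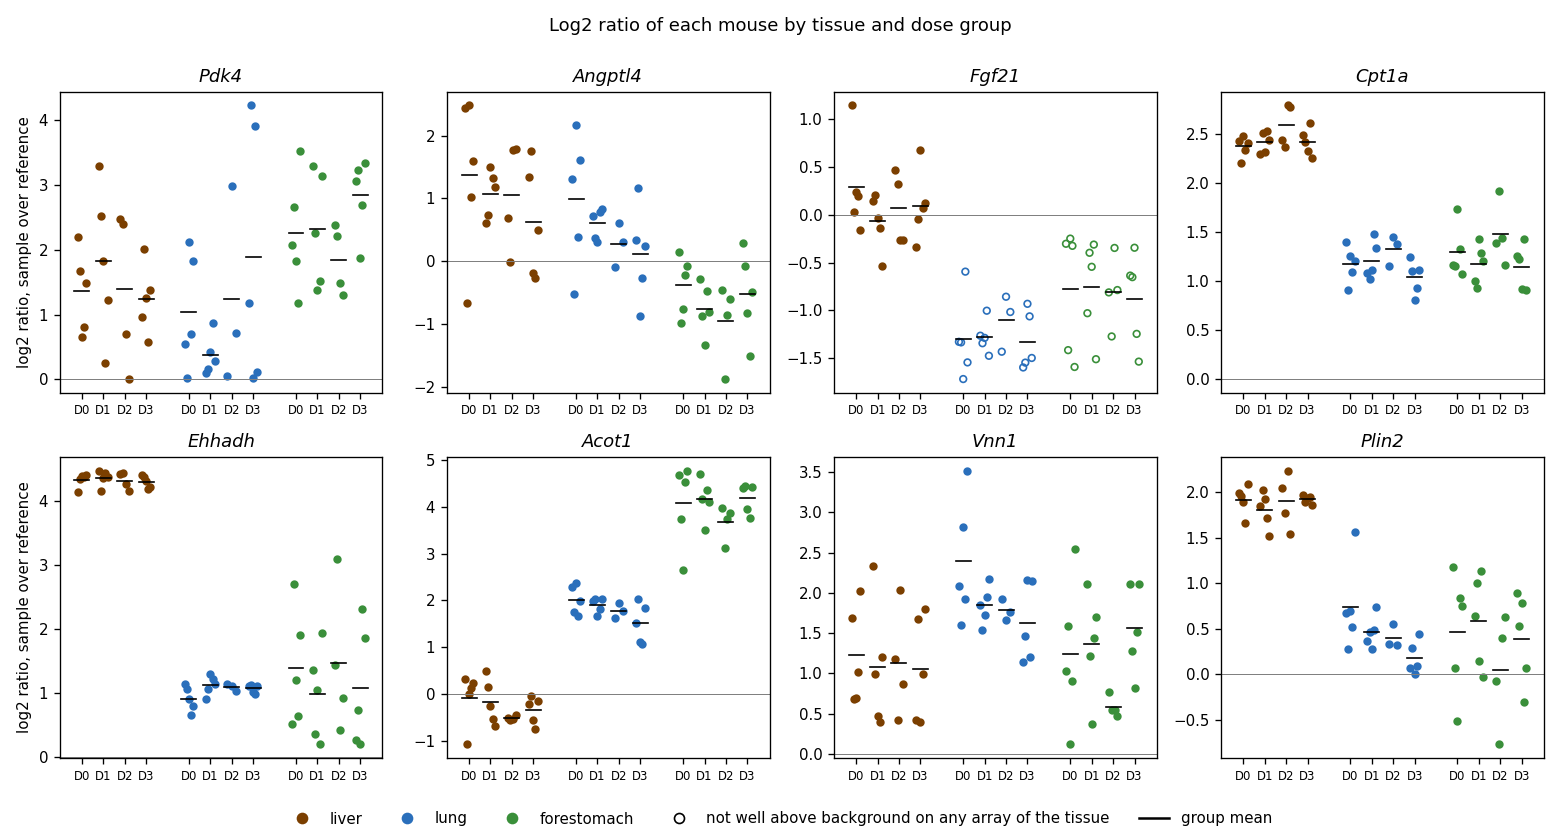
Log2 ratio of sample over reference (vertical axis) of each of the 8 genes in every mouse, by dose group D0 to D3 and tissue (colour), with group means as bars and open points for the tissues in which no array showed the probe above background. Ehhadh stands near 4.4 in all livers, Acot1 climbs from liver to forestomach, and the dose groups of a tissue overlap.

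Among the 8 genes in vehicle mice, Ehhadh and Acot1 had the widest differences from liver on the deposited ratios. Ehhadh was higher in liver, by 3.42 over lung and 2.94 over forestomach on the log2 scale, the latter 7.67-fold. Acot1 went the other way, 4.30-fold lower in liver than in lung and 17.9-fold lower than in forestomach. Cpt1a and Plin2 were also higher in liver than in both other tissues, and Fgf21 was above background in liver only. These are tissue averages, in which fewer cells of a type and less RNA per cell cannot be told apart.

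A member counted as called where the limma adjusted p was at most 0.05 and the fold at least 1.5. The SE of a gene between tissues came from 1 fit of all arrays, which pools its spread over the tissues. Fgf21 entered these comparisons only through liver, where its signal was above background, and is left out of the counts. The background is the share of probes called in the same direction among those that passed the filter in both tissues. Between liver and lung, 5 of the 7 other members were called, 3 higher in liver against a background of 25.9%, and 2 lower against 24.9%. Between liver and forestomach 5 of the 7 were called, 4 higher in liver (background 21.4%) and 1 lower (21.9%). Between lung and forestomach 3 of 7 were called, 2 higher in lung (background 20%) and 1 lower (20.3%).

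Ehhadh, the peroxisomal enzyme, had log2 ratios of 4.14, 4.34, 4.38, 4.38 and 4.41 in the livers of vehicle mice 1 to 5. Their lungs gave 1.13, 1.06, 0.91, 0.65 and 0.79. Their forestomachs gave 0.51, 2.70, 1.20, 0.63 and 1.90. Liver lay above both other tissues in every mouse, by 3.42 (SE 0.34, adjusted p = 1.46e-12) and 2.94 (SE 0.34, adjusted p = 1.76e-10) on the log2 scale. Lung and forestomach overlapped and were not called apart, with a lung minus forestomach difference of -0.48 (SE 0.34, adjusted p = 0.220). This SE pools unlike tissues, as the SD of Ehhadh within dose groups was 0.12 in liver, 0.14 in lung and 0.94 in forestomach. Its forestomach signal was well above background on 16 of 19 arrays.

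Acot1, the cytosolic thioesterase, was lowest in liver, higher in lung and highest in forestomach. The livers of vehicle mice 1 to 5 gave 0.31, -1.08, -0.0035, 0.12 and 0.23, the lungs 2.30, 1.75, 2.38, 1.67 and 2.00, and the forestomachs 4.68, 3.74, 2.64, 4.52 and 4.78. No values overlapped between any 2 tissues. Liver minus lung was -2.10 (SE 0.27, adjusted p = 2.66e-09), liver minus forestomach -4.16 (SE 0.27, adjusted p = 1.57e-18) and lung minus forestomach -2.06 (SE 0.27, adjusted p = 8.46e-09). Acot1 has near-identical neighbours in the Acot cluster, among them Acot2, so that part of this signal can come from them.

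Cpt1a, the mitochondrial gatekeeper, had ratios of 2.21 to 2.49 in liver, 0.91 to 1.40 in lung and 1.08 to 1.74 in forestomach of the 5 vehicle mice. Liver lay above every value of the other tissues, by 1.21 over lung (SE 0.13, adjusted p = 6.07e-12) and 1.08 over forestomach (SE 0.13, adjusted p = 1.86e-10). Plin2, the lipid droplet coat, had ratios of 1.66 to 2.09 in liver, 0.28 to 1.56 in lung and -0.51 to 1.18 in forestomach. The liver excess was 1.17 over lung (SE 0.24, adjusted p = 3.30e-05) and 1.45 over forestomach (SE 0.24, adjusted p = 9.71e-07). For neither gene was the difference between lung and forestomach called, with limma adjusted p of 0.411 and 0.319.

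Fgf21, the liver hormone, was well above background on all 19 liver arrays, 0 of 18 lung arrays and 0 of 19 forestomach arrays. The vehicle livers gave 1.15, 0.03, 0.24, 0.19 and -0.16. All 5 lay above the ratios of the other tissues, which come from signal not well above background. In the Cy5 channel after loess and Aquantile normalization, which is open to dye bias, liver was at least 1.92-fold above forestomach, where the lowest signal above background set the limit. No fold is given over lung, because the limit made in the same way exceeded the difference of the measured ratios. Lung and forestomach hold only bounds and were not compared.

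Angptl4, the lipase inhibitor, was lowest in forestomach. The vehicle livers gave 2.44, -0.67, 2.48, 1.02 and 1.60, the lungs 1.31, -0.52, 2.17, 0.39 and 1.61, and the forestomachs 0.15, -0.98, -0.76, -0.22 and -0.07. Every mouse had its lowest value in the forestomach. Liver minus forestomach was 1.75 (SE 0.46, adjusted p = 9.13e-04) and lung minus forestomach 1.37 (SE 0.46, adjusted p = 0.00895), while liver minus lung was not called (0.38, SE 0.46, adjusted p = 0.468).

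Vnn1, the pantetheinase, was highest in lung. The vehicle lungs gave 2.08, 1.61, 2.82, 1.92 and 3.52, the livers 1.69, 0.68, 0.70, 1.02 and 2.03, and the forestomachs 1.04, 1.59, 0.12, 0.90 and 2.54. The lung lay above the liver and the forestomach of the same mouse in all 5 mice. Liver minus lung was -1.17 (SE 0.38, adjusted p = 0.00594) and lung minus forestomach 1.15 (SE 0.38, adjusted p = 0.00784), while liver minus forestomach was not called (-0.01, SE 0.38, adjusted p = 0.976). Among the 7 members counted, Pdk4, the pyruvate dehydrogenase kinase, was the only one not called between any pair of tissues. Its vehicle ratios were 0.65 to 2.20 in liver, 0.02 to 2.12 in lung and 1.19 to 3.53 in forestomach. The limma adjusted p were 0.659 for liver and lung, 0.218 for liver and forestomach and 0.0903 for lung and forestomach.

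Some of these calls depend on 1 mouse or on the scaling. Without vehicle mouse 3, only Acot1 was still called between lung and forestomach, and Angptl4 and Vnn1 gave 0.98 (adjusted p = 0.0856) and 0.77 (adjusted p = 0.107). With ratios centred on each array's median in place of loess, all probes tested shifted by -0.62 between liver and lung and by 0.95 between lung and forestomach. The lung minus forestomach difference of Acot1 then turned to 0.29, which is -0.66 relative to that shift, and Cpt1a, Plin2 and Angptl4 gave 2.20, 2.49 and 3.59. Liver minus forestomach then was 3.26 for Angptl4, 2.98 for Plin2, -2.94 for Acot1 and 1.99 for Ehhadh, so that the order of the members by size depends on the scaling. On that scale 3 members, Ehhadh, Acot1 and Vnn1, were called between liver and lung.

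The other genes of fat burning, from lists written out from general knowledge, were counted in the same way, among those that passed in both tissues. Of the carnitine shuttle and mitochondrial beta-oxidation genes, 13 of 14 were higher in liver than in lung (25.9% of all such probes) and 0 lower, and 10 of 14 higher than in forestomach (21.4%) and 0 lower. The median difference was 1.87 and 1.08, against 0.07 and 0.02 over all such probes. Cpt2, which hands the fatty acid over inside the mitochondrion, gave 2.69 (SE 0.12) over lung and 0.64 (SE 0.12) over forestomach, and 10 of the 14 genes were lower in lung than in forestomach (20.3%). Of the peroxisomal genes, 8 of 10 were higher in liver than in lung and 8 of 10 higher than in forestomach, with none lower. All 4 ketogenesis genes were higher in liver than in lung and forestomach, with median differences of 3.02 and 1.63. Of the 6 omega-hydroxylases of the Cyp4 family, 3 passed in lung as well as liver and were higher in liver, and 1, Cyp4a10, passed in forestomach as well. These counts hold for the probe of each gene that was used between tissues. Cyp4a10 was higher in liver by 4.18 (SE 0.23) and 4.19 (SE 0.23). Ppara itself gave 3.74 (SE 0.39) over lung and 2.86 (SE 0.39) over forestomach. Of the lipid droplet and lipolysis genes, 3 of 10 were higher and 3 lower in liver than in lung. Over all such probes the shares were 25.9% and 24.9%. Fatty acid uptake and activation gave 7 higher and 4 lower of 12. Fasting and uncoupling genes gave 4 and 3 of 7, and thioesterases 1 and 0 of 3. Against forestomach (21.4% and 21.9%), lipid droplet genes gave 3 and 4 of 10, and uptake genes 6 and 3 of 12. Fasting genes gave 4 and 3 of 8 there, and thioesterases 1 and 1 of 3. Receptors and coactivators gave 5 and 0 of 9 over lung and 5 and 2 of 9 over forestomach.

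Chrysene moved none of the 8 genes past the limits in any tissue. In liver 0 of 8 members were called at D1, D2, D3 or for the dose trend, in lung and forestomach 0 of 7. The background was 0% in liver for each dose and the trend, 0% in lung and forestomach at D1 and D2, 0.127% and 0.00728% at D3 in lung and forestomach, and 0.169% and 0.04% for the trend in those tissues. The members' median log2 difference between D3 and D0 was -0.15 in liver, -0.50 in lung and -0.07 in forestomach, against -0.0073, -0.026 and -0.0015 over all probes tested.

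**Figure D2:**
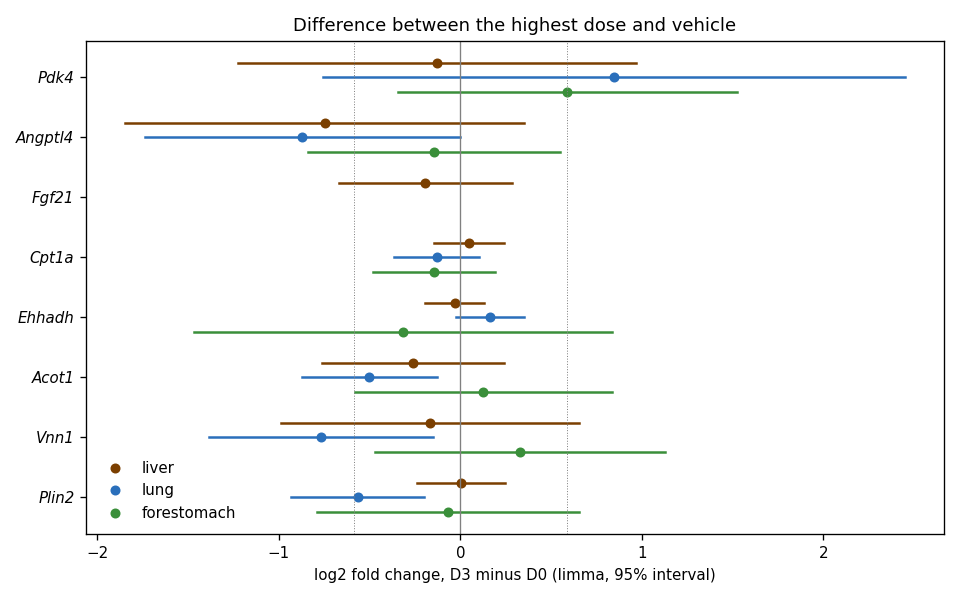
Log2 fold change of D3 minus D0 (horizontal axis) for each gene and tissue with its 95% limma interval, where dotted lines mark the 1.5-fold limits. The lung values of Plin2 (-0.57), Vnn1 (-0.77), Acot1 (-0.50) and Angptl4 (-0.87) lie left of 0, and none passed the adjusted limit.

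In lung at D3, 5 of the 7 members tested had a negative difference, against 6 of 8 in liver at D2 and D3. In lung 4 of them, Plin2, Acot1, Vnn1 and Angptl4, had an unadjusted p of at most 0.05, as did 16.2% of all probes tested. None passed the adjustment, with the smallest adjusted p at 0.155. The exact two-sided permutation test of 5 mice against 5 cannot go below 0.00794.

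Plin2 had lung ratios of 0.68, 0.28, 0.70, 0.52 and 1.56 in the D0 mice. The D3 mice gave 0.07, 0.29, 0.01, 0.09 and 0.44, so that the groups overlapped only at D0 mouse 2 and D3 mice 17 and 20. The difference was -0.57 (SE 0.17, limma adjusted p = 0.155, exact permutation p = 0.0238). The difference was negative within each of the 3 slides, from -0.88 to -0.18, and -0.33 with median centring. All lung probes tested shifted by 0.11 at D3 with that centring, and Plin2 relative to this shift was -0.45. D1 gave 0.28 to 0.74 and D2 0.33 to 0.55, and all dosed mice against D0 gave -0.40 (exact permutation p = 0.0167). The same test in lung gave 0.19 for Ehhadh (exact permutation p = 0.0144) and -0.64 for Vnn1 (exact permutation p = 0.0215). It was run for every member in every tissue, and these p are not adjusted for that.

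Vnn1 had D0 lungs at 2.08, 1.61, 2.82, 1.92 and 3.52, and D3 lungs at 1.15, 1.47, 2.16, 1.20 and 2.14. Mice 5 and 3 set the D0 group apart, and the other 3 lay among the dosed mice. The difference was -0.77 (SE 0.29, limma adjusted p = 0.230, exact permutation p = 0.103), negative within each of the 3 slides, from -1.52 to -0.24. The same vehicle mice 5 and 3 had the highest means of 4 macrophage markers in D0, 3.48 and 3.00. That mean spanned 1.92 to 3.48 in D0 and 2.15 to 3.18 in D3. Across the 18 lungs it went with Vnn1 (r = 0.73, rho = 0.78, permutation p = 0.00876 and 0.00127, adjusted 0.0731 over 220 relations, r = 0.56 without the 2 farthest) and with Plin2 (r = 0.70, rho = 0.66, permutation p = 0.0122 and 0.0117, adjusted 0.0859, r = 0.41). Its part in the dose differences was not tested.

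Acot1 in lung went from 2.30, 1.75, 2.38, 1.67 and 2.00 in D0 to 1.52, 2.04, 1.12, 1.06 and 1.84 in D3. The lowest values were those of mice 18 and 19, and the groups overlapped. The difference was -0.50 (SE 0.18, limma adjusted p = 0.199, exact permutation p = 0.0794), and -0.26 with median centring, or -0.38 relative to the shift of all lung probes. Within the 3 slides the difference on the deposited ratios ran from -0.58 to 0.012. Angptl4 went from 1.31, -0.52, 2.17, 0.39 and 1.61 to 0.35, 1.16, -0.87, -0.27 and 0.24, a difference of -0.87 (SE 0.41, limma adjusted p = 0.308, exact permutation p = 0.167) that was positive, 0.77, on 1 of the 3 slides. With the array column added as a covariate, the Angptl4 difference became 0.24, and in lung column 1 held the 5 D0 arrays and no dosed array.

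Pdk4 in lung was the member with the widest values. The D0 lungs gave 0.54, 0.02, 2.12, 0.70 and 1.82, and the D3 lungs 1.17, 4.23, 0.02, 3.90 and 0.11. The 2 high values belong to mice 17 and 19, the lungs with the high skeletal muscle markers. The difference was 0.85 (SE 0.76, limma adjusted p = 0.621) with them and -0.61 without them. Ehhadh and Cpt1a had lung differences of 0.16 (SE 0.09, adjusted p = 0.380) and -0.13 (SE 0.11, adjusted p = 0.600).

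In liver, where 7 of the 8 members had differences between -0.26 and 0.05 at D3, Angptl4 stood at -0.75 (SE 0.53, limma adjusted p = 1.00, exact permutation p = 0.333). Its D0 livers spanned -0.67 to 2.48 and its D3 livers gave 1.34, 1.76, -0.19, -0.27 and 0.50, so that the spread within each group exceeded the difference. The D3 minus D0 interval of Cpt1a ran from -0.15 to 0.24. At D2 Cpt1a gave 0.22 (SE 0.10, exact permutation p = 0.119), with livers 13 and 15 at 2.80 and 2.78. The Ehhadh interval at D3 ran from -0.19 to 0.13 and the Plin2 interval from -0.24 to 0.24, so that a 1.5-fold change of these 3 genes lies outside the 95% intervals. For Pdk4 the interval ran from -1.23 to 0.97, so that a change of that size was not detectable in 5 mice.

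In forestomach the D3 differences ran from -0.32 (Ehhadh, SE 0.55) to 0.59 (Pdk4, SE 0.44, limma adjusted p = 0.762, exact permutation p = 0.254). Pdk4 gave 2.07, 2.65, 1.82, 1.19 and 3.53 in D0 and 3.06, 3.23, 1.87, 2.69 and 3.34 in D3, with the groups overlapping. Vnn1 gave 0.33 (SE 0.38) and Acot1 0.13 (SE 0.34). Glandular stomach markers were high (mean of 5.20 to 6.80) in 3 of 5 D0, 2 of 5 D1, 4 of 4 D2 and 1 of 5 D3 forestomachs and lay at or below 2.62 in the rest, and their part in these differences was not tested.

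The dose effect of no member differed between tissues past the limits. The D3 effect was compared in 1 fit of all arrays, and 0 of 8 members were called between liver and lung, 0 of 8 between liver and forestomach and 0 of 7 between lung and forestomach, against 0%, 0.0773% and 0.704% of all probes tested. Fgf21 is among the 8 only through liver, so that its comparison carries no information on the other tissues. The farthest was Vnn1, with a lung minus forestomach difference of the D3 effect of -1.09 (SE 0.54, adjusted p = 0.379).

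The wider pathway gave no call at D3 in any of the 3 tissues either. In lung, 12 of 15 carnitine shuttle and mitochondrial genes had a positive difference (median 0.17 against -0.03 over all probes tested), with Cpt1b, the muscle form of the shuttle, at 1.16 (SE 0.50, adjusted p = 0.267). Markers of other cells had positive differences in the same comparison, with 0 called: the median difference was 2.56 for 4 of 4 skeletal muscle, 0.43 for 5 of 5 cardiac muscle, 1.56 for 7 of 7 adipocyte, 0.90 for 3 of 3 brown adipocyte and 1.82 for 3 of 3 keratinocyte markers. Without lungs 17 and 19 the medians were -0.0038, 0.086, 0.38, -0.15 and 0.043 in the same order, Cpt1b gave 0.13 (SE 0.30, limma adjusted p = 0.922), and 8 of the 15 mitochondrial genes had a positive difference (median 0.011). In liver, 11 of 14 of these genes had a positive difference, with a median of 0.03.

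The members differed in how far they varied between mice of 1 dose group. In liver the residual SD of Pdk4 and Angptl4 was 0.92 and 0.93, above 99.7% of all probes tested, and that of Vnn1 was 0.69, above 99.3%. Acot1 with 0.42 and Fgf21 with 0.40 lay above 96.6% and 96.1%, and Plin2 with 0.19 above 68.4%. Ehhadh had an SD of 0.12, below the median of 0.16 over all probes tested, and Cpt1a 0.15. Pdk4 alone spanned 0.01 to 3.29 across the 19 livers. In lung the order was alike, with Pdk4 at 1.34, Angptl4 at 0.72, Vnn1 at 0.51 and Ehhadh at 0.14. In forestomach Ehhadh was the widest member, with an SD of 0.94 against a median of 0.28, and Cpt1a the narrowest with 0.25.

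Part of that spread went with the slide. With the slide beside the dose group in limma, Pdk4 in liver had means of 1.59, 2.14 and 0.77 on slides 1, 2 and 3 (adjusted p = 0.0140), against a background of 22.2% of all liver probes past the same limit of 0.05. In forestomach, where this share was 39.9%, Pdk4 gave 2.98, 2.60 and 1.51 (adjusted p = 7.73e-05), Ehhadh 2.16, 0.66 and 0.66 (adjusted p = 2.60e-05) and Vnn1 1.73, 1.28 and 0.67 (adjusted p = 0.0139). Mean sample signals on these slides were 516, 102 and 96 for Ehhadh and 486, 147 and 102 for Vnn1. Fgf21, well above background on no forestomach array, read 61 to 81. Both genes thus lay near background on slides 2 and 3, and their forestomach relations below include these values. In lung no member passed, against 1.08% of all probes tested. No member was called for dose with the slide in the fit.

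Angptl4 went together in the liver and lung of a mouse. Over 18 mice, after removing dose group means, r was 0.85 and rho 0.82 (permutation p = 5.20e-04 and 0.00195), and the adjusted p over all 19917 features was 0.0106. Features with a positive call made up 1.05% between liver and lung, 0.136% between liver and forestomach and 0.13% between lung and forestomach. Of the 21 gene and tissue pairs computed for members, only this one was called. Mouse 2 was lowest among D0 in both organs, at -0.67 and -0.52, and mouse 3 highest, at 2.48 and 2.17. Mouse 18 had -0.19 and -0.87, and mouse 17 had 1.76 and 1.16. Without the 2 livers farthest from the median r was 0.78, and without mouse 2 alone it was 0.75 (adjusted p = 0.132). With the slide removed as well, r was 0.86 with an adjusted p of 0.282, and 0 features were called. Between liver and forestomach Angptl4 had an r of 0.56 (rho 0.47, permutation p = 0.0264 and 0.0792, adjusted p = 0.584), and Pdk4, as wide as Angptl4 in liver and wider in lung, gave -0.23 between liver and lung (rho -0.31, permutation p = 0.331 and 0.207, adjusted p = 0.899).

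**Figure D3:**
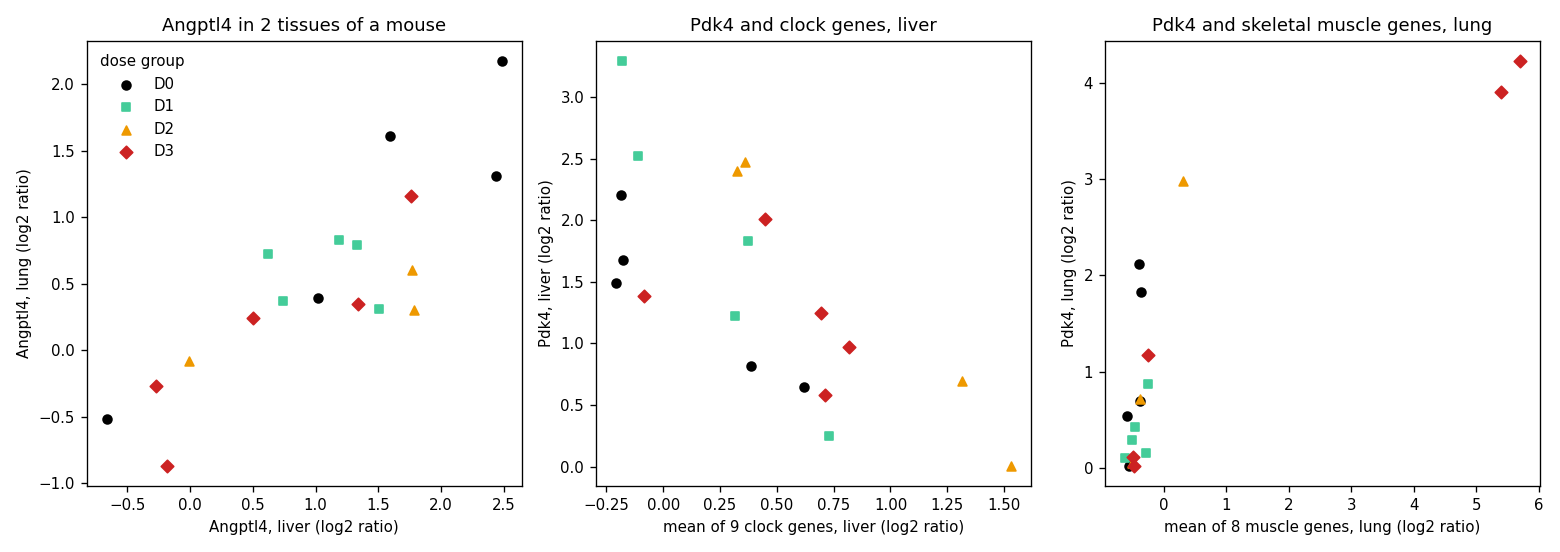
Log2 ratios of single mice, marked by dose group: Angptl4 in lung against liver (left), Pdk4 in liver against the mean of 9 clock output genes (middle) and Pdk4 in lung against the mean of 8 skeletal muscle genes (right). Angptl4 rises in both organs together, Pdk4 falls as the clock mean rises, and lungs 17 and 19 lie alone at muscle means above 5.

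In liver, Pdk4 went against the clock output genes, which peak and fall over the day. The mean of 9 such genes, among them Dbp, Tef and Per1, correlated with Pdk4 at r = -0.86 and rho = -0.88 over 19 mice, with dose group means removed (permutation p = 1.80e-04 and 1.50e-04, Benjamini-Hochberg adjusted 0.0132 over 220 relations between members and marker or clock lists). Without the 2 mice farthest from the median of the clock mean, r was -0.91, and with the slide removed -0.77. Mice 15 and 13 had the highest clock means, 1.53 and 1.31, and Pdk4 at 0.01 and 0.69. Mice 6 and 7 had clock means of -0.18 and -0.11 and Pdk4 at 3.29 and 2.52. In a fit of all probes on the Pdk4 level, 4 of the 9 genes were called, Dbp (r = -0.88, adjusted p = 0.00118), Tef, Nr1d2 and Per1, each with a negative slope. Over all probes, 0.466% were called. With the slide in the fit 0 of the 9 and 0.0284% of all probes were, Dbp having an adjusted p of 0.0928. Cpt1a had an r of 0.71 and a rho of 0.73 with the same clock mean (permutation p = 0.0125 and 0.00883, adjusted 0.0859, r = 0.61 without the 2 farthest), and livers 13 and 15 were its highest 2. All 9 clock genes had a positive difference from D0 in liver at D2, the group of livers 13 and 15, and at D3. The median was 0.65 at D2, where 4 had an unadjusted p of at most 0.05 against 3.79% of all probes, and 0.30 at D3, where 2 had against 4.79%. In lung the median was 0.78 at D2, where all 9 were positive and 7 had such a p against 6.12%. In lung at D3 it was 0.21, where 8 of 9 were positive and 3 had such a p against 16.2%, and 0.53 without lungs 17 and 19. In forestomach at D3, 7 of 8 were positive, with a median of 0.40, and 3 had such a p against 9.24%. No clock gene was called at these doses, and their part in the dose differences of the members was not tested. The hour of day at which each mouse was taken was not used here.

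In lung, the spread of Pdk4 went with skeletal muscle markers. Lungs 17 and 19 had marker means of 5.70 and 5.40 and Pdk4 at 4.23 and 3.90, while the other 16 lungs had means of -0.63 to 0.31 and Pdk4 at 0.02 to 2.98. Within those 16 lungs r was 0.78 and rho 0.72 (permutation p = 0.00161 and 0.00244, adjusted 0.0169 over 21 relations), but r dropped to 0.47 without the 2 lungs farthest from the median of the marker mean, so that the relation rests on them. One of them, lung 13, had a marker mean of 0.31 and Pdk4 at 2.98. All 4 muscle genes tested were called in the fit on the Pdk4 level, Ckm with an adjusted p of 3.19e-05 and Acta1 with 5.68e-05, against 9.17% of all probes. Without lungs 17 and 19, 2 of the 4 were called, against 0.394% of all probes. Of the cardiac muscle markers 3 of 5 were called, Myl7, Tnni3 and Tnnt2, and also 3 without those lungs. Adipocyte, brown adipocyte and keratinocyte markers were called too, 6 of 7, 2 of 3 and 3 of 3, and 0 of them without those lungs. Of the 15 mitochondrial beta-oxidation genes 7 were called, and 1 without those lungs.

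Members were next compared with each other across the mice of a tissue, by fitting all probes on the level of each member in turn. In liver 0 of 56 ordered member pairs were called and in lung 0 of 42, against 0.0628% and 1.35% over all probes in these fits. In forestomach 16 of 42 (38.1%) were called against 19.8%, which made 9 of 21 pairs. With the slide in the fit 24 of 42 were called against 8.83%. The slide moved the pairs: 9 were called without it, 13 with it, and 7 under both. In lung, Angptl4 with Acot1 gave an r of 0.80 (rho 0.81, 0.86 with the slide removed, permutation p = 0.00148 and 0.00213, limma adjusted p = 0.246 and 0.533 in its 2 fits). Vnn1 with Plin2 gave 0.76 in lung (rho 0.57, 0.68 with the slide removed, permutation p = 0.00843 and 0.0391, limma adjusted p = 0.119 and 0.0727), and 0.40 without the 2 farthest mice. It was called without mice 17 and 19 (r = 0.79, limma adjusted p = 0.0685 and 0.0388). Pdk4 with Angptl4 in lung (r = 0.56, rho = 0.53, permutation p = 0.0303 and 0.0572) was called with the slide in the fit (r = 0.71, limma adjusted p = 0.0292 and 0.244).

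**Figure D4:**
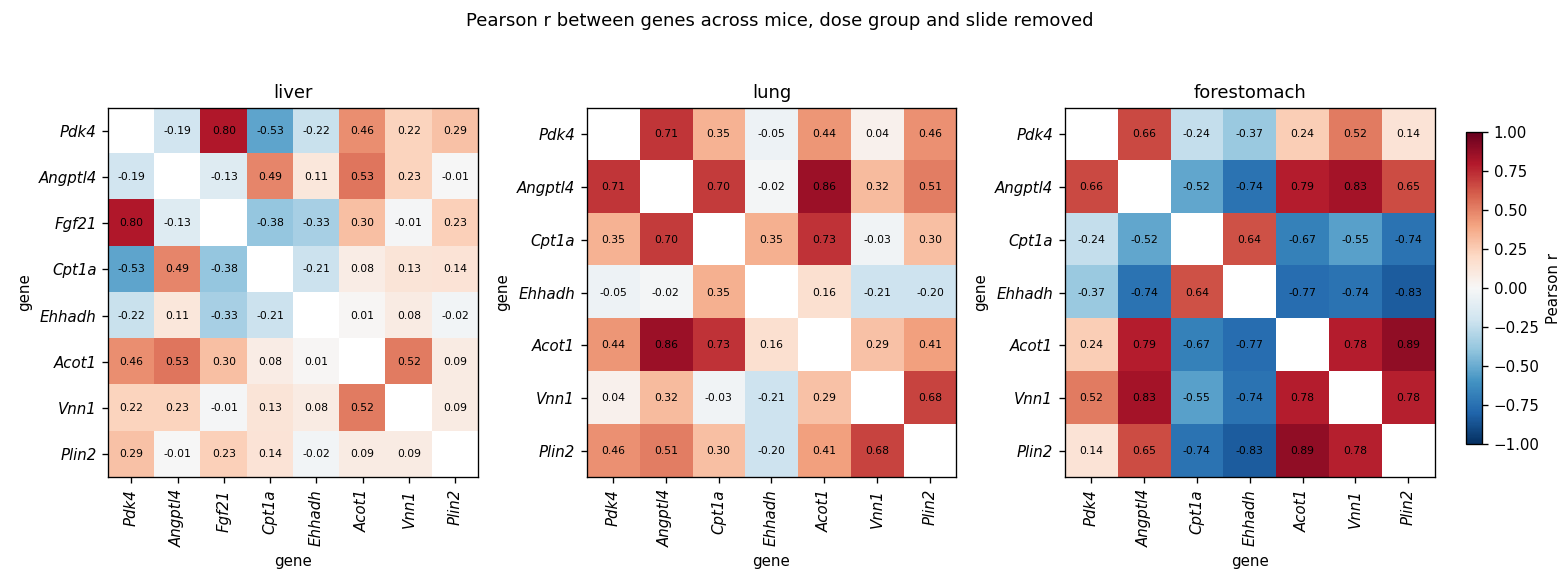
Pearson r between each pair of genes across the mice of a tissue, with dose group and slide means removed (blue negative, red positive, value printed in each square). In forestomach Acot1 and Plin2 reach 0.89 and Ehhadh and Plin2 -0.83.

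Across all 19 forestomachs Acot1, Angptl4 and Plin2 went up and down together, Vnn1 went with Acot1, and Ehhadh and Cpt1a went against Plin2. The correlation of Acot1 with Plin2 was 0.73 across 19 mice and 0.89 with the slide removed, with Angptl4 0.75 and 0.79, and with Vnn1 0.66 and 0.78. Angptl4 with Plin2 gave 0.72 and 0.65. Ehhadh with Plin2 gave -0.77 and -0.83, and Cpt1a with Plin2 -0.63 and -0.74. Over the 6 pairs the permutation p of r ran from 1.10e-04 to 0.0186. The rank correlation gave 0.84 for Angptl4 with Acot1, 0.65 for Angptl4 with Plin2, 0.56 for Acot1 with Plin2 and -0.78 for Ehhadh with Plin2 (permutation p from 2.00e-05 to 0.0261). It was weaker for Cpt1a with Plin2 (rho -0.50, permutation p = 0.0507) and Acot1 with Vnn1 (rho 0.42, permutation p = 0.129). Without the 2 farthest mice r was smallest for Cpt1a with Plin2 (-0.38) and Acot1 with Vnn1 (0.39). These 6 pairs, counted where either gene's fit called the other, were called with the deposited ratios, with recomputed ratios and with the slide in the fit. Vnn1 with Plin2 (r = 0.19, rho = -0.0070, permutation p = 0.519 and 0.981) and Vnn1 with Angptl4 (r = 0.39, rho = 0.31, permutation p = 0.103 and 0.238) were called only with the slide in the fit, at r = 0.78 and 0.83. So were 4 other pairs: Ehhadh with Vnn1, which turned from 0.34 to -0.74, Ehhadh with Acot1, from -0.27 to -0.77, Pdk4 with Angptl4, from 0.21 to 0.66, and Cpt1a with Acot1, at -0.68 and -0.67. Pdk4 with Ehhadh was called without the slide (r = 0.56) and turned to -0.37 with it. Mouse 3 had Acot1 at 2.64, Plin2 at -0.51 and Vnn1 at 0.12, each the lowest of D0, and Cpt1a at 1.74, the highest of D0. Mouse 12 had the lowest Plin2 of all 19, -0.77, with Angptl4 at -1.88, Ehhadh at 3.095 and Cpt1a at 1.92, the last 2 the highest of all.

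The level of glandular stomach markers split the forestomachs, and its relation to the members depended on the slide. The 19 forestomachs fell into 10 with a marker mean of 5.20 to 6.80 and 9 with 0.31 to 2.62, so that no correlation was taken over both. Plin2 ran from -0.77 to 0.76 in the 10 and from 0.07 to 1.18 in the 9. Acot1 ran from 2.64 to 4.78 and from 3.95 to 4.71, and Ehhadh from 0.42 to 3.095 and from 0.20 to 1.85. Within the 10, Ehhadh went with the marker mean at r = 0.90 and rho = 0.92 (permutation p = 3.70e-04 and 5.90e-04, adjusted 0.00777 over 21 relations, r = 0.88 without the 2 farthest). These 10 mice lay 5, 1 and 4 on slides 1, 2 and 3, and the 5 of slide 1 had Ehhadh at 1.90 to 3.095 and the other 5 at 0.42 to 1.44. With slide means removed r was 0.74 (permutation p = 0.0531, adjusted 0.124 over 14 relations), and with dose group means removed 0.92 (permutation p = 0.0174, adjusted 0.244). With the slide removed, the marker mean went against Acot1 (r = -0.90, adjusted permutation p = 0.0292), Plin2 (-0.87, 0.0292) and Vnn1 (-0.80, 0.0434) in the 10. None of the 14 passed with dose group means removed, and none of the 7 within the 9 with the slide removed. Within the 9, Ehhadh had an r of 0.17 and a rho of 0.27 (permutation p = 0.646 and 0.494). Member pairs within either set were compared on raw levels with free permutations, and none with slide or dose group means removed. Their p therefore do not separate differences between slides or doses from differences between mice. Among the 42 relations of member pairs within either set, Pdk4 with Vnn1 gave the highest r, 0.91 in the 10 (rho 0.90, permutation p = 2.20e-04 and 8.20e-04, adjusted 0.00924) and 0.76 in the 9 (rho 0.68, permutation p = 0.0265 and 0.0495, adjusted 0.139). Across all 19 this pair gave 0.79 (rho 0.78, permutation p = 6.50e-04 and 6.20e-04), and 0.52 with the slide removed (limma adjusted p = 0.350 and 0.175 in the fits on Pdk4 and on Vnn1). Cpt1a with Plin2 gave an r of -0.83 in the 10 (rho -0.66, permutation p = 0.00321 and 0.0439, adjusted 0.0449) and 0.43 in the 9 (rho 0.42, permutation p = 0.255 and 0.271, adjusted 0.446). Cpt1a with Acot1 gave -0.83 in the 10 (rho -0.82, permutation p = 0.00267 and 0.00561, adjusted 0.0449) and 0.40 in the 9 (adjusted 0.456). Acot1 with Vnn1 gave 0.79 in the 10 (rho 0.76, permutation p = 0.00432 and 0.0149, adjusted 0.0454) and 0.37 in the 9 (adjusted 0.464). Ehhadh with Plin2 gave -0.84 in the 9 (rho -0.68, permutation p = 0.00716 and 0.0507, adjusted 0.0601) and -0.51 in the 10 (rho -0.54, permutation p = 0.136 and 0.116, adjusted 0.300), and the difference between the sets was not tested. Acot1 with Plin2 gave 0.74 in the 10 (rho 0.52, permutation p = 0.0143 and 0.136, adjusted 0.1004) and -0.04 in the 9 (rho -0.13, permutation p = 0.919 and 0.744, adjusted 0.990). Angptl4 with Plin2 gave 0.70 in the 10 (rho 0.50, permutation p = 0.0246 and 0.145, adjusted 0.139) and 0.12 in the 9 (rho 0.17, permutation p = 0.759 and 0.677, adjusted 0.839). Angptl4 with Acot1 gave 0.58 in the 10 (adjusted 0.195) and 0.70 in the 9 (adjusted 0.159). The part of the glandular cells in the member pairs was not tested.

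**Figure D5:**
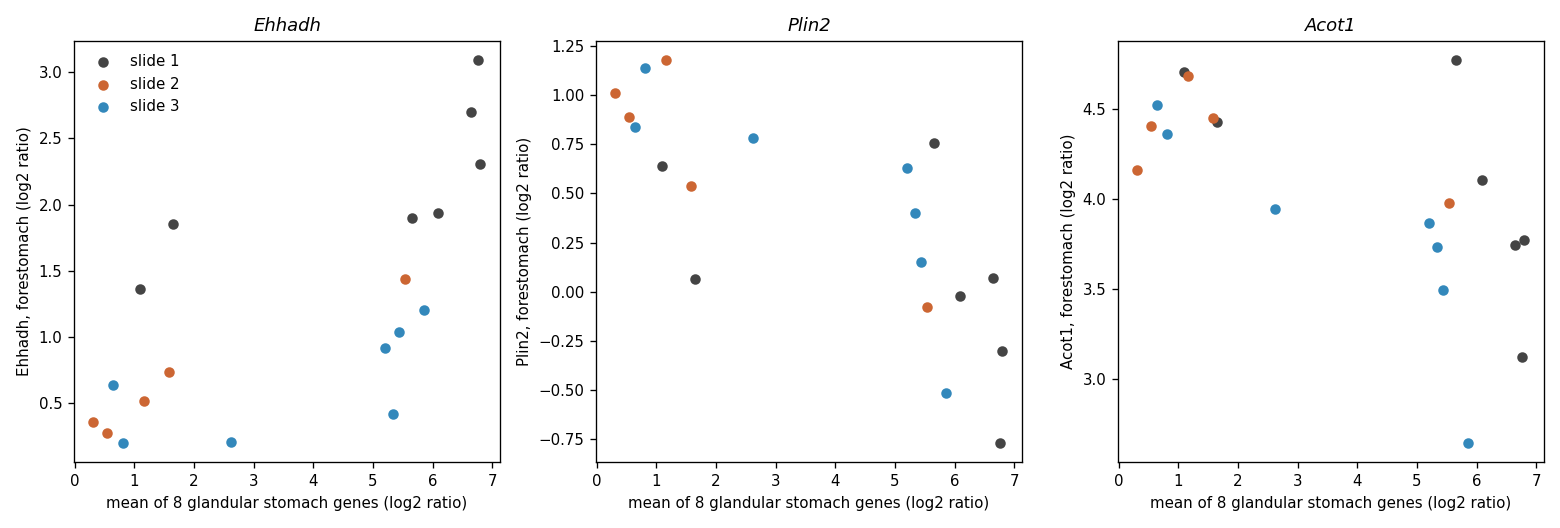
Log2 ratio of Ehhadh, Plin2 and Acot1 in forestomach (vertical axes) against the mean log2 ratio of 8 glandular stomach genes, 1 point per mouse, coloured by slide. The 9 mice at or below 2.62 and the 10 at or above 5.20 lie apart, and Ehhadh climbs within the 10.

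Among genes that are not members, the one whose pattern across mice was most like a member's was Krtap20-2 for Pdk4 in liver (r = 0.95 over 19 mice, among 12581 genes), Il6ra for Angptl4 (0.89), Dgat2 for Cpt1a (0.85) and Cyp3a25 for Ehhadh (0.89). In lung it was Il33 for Plin2 (0.95 over 18 mice, among 14734 genes), Snx30 for Vnn1 (0.95) and Klf10 for Angptl4 (0.85). In forestomach it was Gramd1c for Plin2 (0.98 over 19 mice, among 14057 genes), Ephb6 for Acot1 (0.98) and Chn2 for Ehhadh (0.96). Each was the closest of all genes compared, so that its r is a description of these mice.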

How the data were processed

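Each sample's RNA was labelled with Cy5 and a universal mouse reference RNA with Cy3 on 2-colour Agilent arrays, with no dye swap. Spot intensity in the deposited array files is the median over pixels from Feature Extraction 10.7.3.1. The authors normalized these intensities by LOWESS with no background removed, and deposited 1 log2 ratio of Cy5 over Cy3 for every probe. Its correlation with ratios recomputed here by loess was 0.977 to 0.998 and its array medians were -0.05 to -0.02, so that scale and direction are those of log2 Cy5 over Cy3. Probes were named through RefSeq accessions. All probes with Cy5 well above background on at least 3 arrays of the tissue and with no non-uniform spot were tested (24692 in liver, 31448 in lung, 27491 in forestomach), and Benjamini-Hochberg adjustment ran over all of them. The study's methods name MAANOVA. limma 3.58.1 (R 4.3.3) was used here and was tested on simulated data. Mouse numbers in the labels pair the tissues of an animal. Deviations of all probes correlated above 0.1 in 12 of 18 mice between liver and lung, 7 of 19 between liver and forestomach and 1 of 18 between lung and forestomach. Correlations used deviations from dose group means, or raw levels where mice were split by a marker, and 100000 permutations, within dose groups except in those splits, where they were free or within the slide or dose group removed. The precision is limited by the number of arrays. Named genes are the members, genes of the lists and, for likeness, the gene with the highest r. The members and lists were chosen with earlier results of these data known. Alternatives were recomputed ratios, normexp, median centring, other filters, slide, array column, array weights, the replicate block and leaving out each mouse. The exclusion of lungs 17 and 19, the slide test, the restriction of counts in vehicle mice to probes passing in both tissues, the removal of slide or dose means within the sets split by glandular stomach markers, and leaving out single mice in comparisons between or across tissues and between members were added after seeing the data.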

Additional observations from a re-analysis of the deposited data

Results flagged for a closer look

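Of 81 groups of 4 or 5 mice examined over the members and tissues, 2 held a mouse far from the others, where chance gives about 1 in 20. Ehhadh in the liver of D0 mouse 1 was 4.14, below the other 4 at 4.34 to 4.41. Acot1 in the liver of D0 mouse 2 was -1.08, below the other 4 at -0.0035 to 0.31, and the same mouse had the lowest D0 value of Angptl4 in liver (-0.67) and lung (-0.52).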

How the results depend on the processing

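No member was called for dose under any alternative run. The signs of small D3 differences did change. The array column departed from the dose order only in livers 1 and 20, lungs 12 and 16 and forestomachs 2 and 20. Differences with the array column as a covariate therefore rest on these mice. In liver Plin2 turned to -0.041 with recomputed loess ratios, -0.074 with median centring and -0.071 with the array column as a covariate. Ehhadh turned to 0.098 with normexp and 0.11 with the array column, Cpt1a to -0.049 with the array column and Pdk4 to 0.088 with array weights. In lung Cpt1a turned to 0.11 with median centring and 0.60 with the array column, Angptl4 to 0.24 with the array column and Pdk4 to -0.61 without mice 17 and 19. In forestomach Cpt1a turned to 0.048 with loess and 0.049 with normexp, and Plin2 to 0.027 and 0.036. Median centring gave Angptl4 0.43, Cpt1a 0.47 and Plin2 0.49 there, and the array column gave Angptl4 0.36 and Plin2 0.17. Median centring shifted all probes tested at D3 by -0.049 in liver, 0.11 in lung and 0.18 in forestomach. Relative to these shifts, Plin2 gave -0.025 in liver, and Cpt1a gave -0.0046 in lung and so kept its sign. In forestomach Angptl4, Cpt1a and Plin2 then gave 0.26, 0.30 and 0.31. Leaving out each mouse gave liver ranges of -0.32 to 0.080 (Pdk4), -0.34 to 0.022 (Fgf21), -0.00081 to 0.089 (Cpt1a), -0.35 to 0.034 (Vnn1) and -0.060 to 0.047 (Plin2), and forestomach ranges of -0.35 to 0.10 (Angptl4), -0.62 to 0.012 (Ehhadh), -0.23 to 0.30 (Acot1) and -0.31 to 0.11 (Plin2).

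In vehicle mice the replicate block, which pairs the tissues of a mouse, left 6, 6 and 3 members called, Fgf21 counted in the first 2, and 0 for the D3 effect. Median centring left 3 called between liver and lung and gave 4 between lung and forestomach. It turned liver minus lung to -0.75 (Pdk4) and -0.33 (Angptl4), liver minus forestomach of Vnn1 to 0.012, and lung minus forestomach to 0.28 (Pdk4), 2.20 (Cpt1a), 0.22 (Ehhadh) and 0.29 (Acot1). Recomputed loess turned lung minus forestomach of Cpt1a to 0.17. Leaving out each mouse left 1 to 3 called between lung and forestomach, and ranges of -0.0075 to 0.78 (Pdk4, liver minus lung) and -0.18 to 0.21 (Vnn1, liver minus forestomach). Angptl4 in liver and lung was no longer called with the slide (0 members) and in 0 to 1 members with a mouse left out. In lung 1 member pair was called with the slide in the fit, 1 without mice 17 and 19, and 0 to 1 with a mouse left out. The cause of these changes was not tested. Counts over all probes moved more: 40 called in lung at D3 ranged from 0 to 143, 2 in forestomach from 0 to 137, 0 in liver from 0 to 23, and the trend counts of 53 and 11 from 0 to 125 and 0 to 81. With a mouse left out, the D3 effect counts of 23 (liver against forestomach) and 230 (lung against forestomach) ran from 0 (without mouse 1) to 171 (without mouse 19) and from 14 (without mouse 17) to 433 (without mouse 5). Features called in both tissues of a mouse, 26 and 30 for the same pairs, ran from 8 (without mouse 17) to 23 and from 6 (without mouse 10) to 20. Low sample signal on forestomach slides 2 and 3 limits what could be detected there.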
